A study of Mus musculus with 33 samples.

Results

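Matrix metalloproteinases (MMPs) and the tissue inhibitors of metalloproteinases (TIMPs) were followed in cultures of mouse retinal progenitor cells directed towards cone or rod photoreceptors. The 10 genes were chosen by name: the proteases Mmp2, Mmp3, Mmp11, Mmp14, Mmp15 and Mmp16 and the inhibitors Timp1, Timp2, Timp3 and Timp4. Each was found by its symbol among the 47729 genes of the count tables. The choice was made with earlier results of these data known. All 10 passed the filter on low counts, which left 18150 genes for testing. The cells came from C57BL/6J retina of embryonic day 14, and RNA was sequenced in bulk from 33 libraries, 3 for each of 11 groups. The day 0 groups were untreated cells, cells primed towards cones with COCO protein, a secreted protein that blocks ligands such as BMPs, and cells primed towards rods with taurine and retinoic acid. At days 5, 12, 21 and 35 there were cells under cone induction with COCO protein and cells under rod induction with taurine and retinoic acid. The growth protocol is not described in the labels, no deposited label names a batch, and the labels do not say whether the 3 libraries of a group came from separate cultures or animals, so that p-values measure only the spread between these libraries.

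MMPs are zinc-dependent endopeptidases that cleave extracellular matrix and cell-surface proteins. They are made as inactive precursors and are switched on by proteolysis. Mmp14, Mmp15 and Mmp16 are anchored in the plasma membrane, whereas Mmp2 (gelatinase A), Mmp3 (stromelysin-1) and Mmp11 (stromelysin-3) are secreted. TIMPs bind the active site of MMPs, and Timp3 differs from the others in being held in the matrix. Timp2 has a double role, since a complex of Mmp14 and Timp2 at the cell surface captures the Mmp2 precursor for activation, while free Timp2 inhibits the enzymes. In the retina, these genes are known from the interphotoreceptor matrix, the vitreoretinal border and vessels, and mutations of the human TIMP3 gene cause a macular dystrophy.

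The genes lie on 9 chromosomes of mouse build GRCm38 (GENCODE release M21). Mmp2 and Mmp15 share a chromosome (chr8:92827291-92853420 and chr8:95352268-95375080), as do Mmp11 and Timp3 (chr10:75923222-75936496 and chr10:86300372-86349506). Mmp3 is at chr9:7445822-7455975, Mmp14 at chr14:54431612-54445364, Mmp16 at chr4:17852893-18119145 and Timp2 at chr11:118301069-118355740. Timp1 (chrX:20870166-20874735), Timp3 and Timp4 (chr6:115241892-115252205) each lie inside a synapsin gene, Syn1, Syn3 and Syn2, on the opposite strand. Exons of Timp3 and Timp4 overlap exons of Syn3 and Syn2, and in GENCODE exons of Mmp11 overlap Chchd10 on the other strand. The gene positions deposited with the data put Mmp11 at chr10:75923222-75932502, outside the GENCODE span of Chchd10 (chr10:75933130-75937747). The strand setting of the counting is not stated. Reads of Timp3 and Timp4, and of Mmp11 under the GENCODE positions, could therefore not be told apart with certainty from those of their partners. The partners' counts were not small beside those of these members at day 0. In untreated cells Syn3 had 143, 277 and 336 counts where Timp3 had 9, 8 and 16, Syn2 had 12, 45 and 35 where Timp4 had 16, 10 and 37, and Chchd10 had 33, 71 and 39 where Mmp11 had 7, 37 and 42. The highest counts in any library were 336 for Syn3, 121 for Syn2 and 186 for Chchd10. The part of the partners' reads in the levels of these 3 members was not tested.

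Promoter letters from RefSeq (build GRCm38.p6, 250 bases before to 50 after each annotated start) were found for 8 of the 10 genes, with no entry for Mmp2 and Mmp16. They were searched on both strands for the AP-1 motif TGANTCA (in 7.81% of 32817 promoters), the TATA box TATAAA (13.6%), the GC box GGGCGG (35.6%) and the retinoid receptor site AGGTCA (16.3%). No matches overlapped. The 250 bases before the start are printed for the gene with the steepest late rise, Mmp3, for the membrane protease Mmp14 and for Timp1, 5′ to 3′ on the plus strand, with matches in capitals (chr9:7445572-7445821, chr14:54431348-54431597 and chrX:20869916-20870165).
Mmp3: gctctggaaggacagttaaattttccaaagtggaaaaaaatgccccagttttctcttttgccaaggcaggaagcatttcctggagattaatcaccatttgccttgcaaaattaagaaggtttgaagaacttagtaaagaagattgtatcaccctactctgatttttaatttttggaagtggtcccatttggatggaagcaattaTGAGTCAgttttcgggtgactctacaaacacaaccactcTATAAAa
Mmp14: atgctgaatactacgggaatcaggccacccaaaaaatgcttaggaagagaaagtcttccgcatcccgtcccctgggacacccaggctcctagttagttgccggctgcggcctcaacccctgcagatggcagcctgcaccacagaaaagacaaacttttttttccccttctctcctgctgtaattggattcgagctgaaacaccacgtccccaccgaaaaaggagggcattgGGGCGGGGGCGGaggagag
Timp1: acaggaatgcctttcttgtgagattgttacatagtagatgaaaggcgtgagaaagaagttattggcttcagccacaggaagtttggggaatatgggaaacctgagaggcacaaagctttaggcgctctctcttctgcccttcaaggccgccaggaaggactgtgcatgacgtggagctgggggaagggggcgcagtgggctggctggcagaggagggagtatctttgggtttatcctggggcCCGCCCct

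Among the 8 promoters, Mmp3 alone held the AP-1 letters, beginning at position -46 from the start, and alone held TATAAA, beginning at position -7. Its 300 bases contained 1 CpG dinucleotide, against a median of 7 over all promoters. GC boxes were found in 6 promoters, those of Mmp11 (4), Mmp14 (2), Timp3 (2), Mmp15 (1), Timp1 (1) and Timp2 (1), and none of the searched letters were found in Timp4. The promoters of Timp2, Timp3 and Mmp15 held 25, 24 and 22 CpG. AGGTCA was found in none of the 8. Each match describes letters, not a bound site.

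Library totals over genes lay between 7511837 and 19166442 counts (median 12985662), and the common biological coefficient of variation was 0.213. All 10 retinal progenitor markers had counts in untreated cells, summing to 1138 to 1234 CPM (CPM being counts scaled to the library total). The summed level of 8 photoreceptor markers lay between 1179 and 1585 CPM before treatment, between 12.1 and 41.5 CPM at cone day 35 and between 8.73 and 16.1 CPM at rod day 35, so "cone" and "rod" name the treatment here. In bulk samples, fewer cells of a type and less RNA per cell cannot be told apart. Below, levels are CPM, differences are log2 fold changes ± standard error (SE) from edgeR, and "called" means an adjusted p (Benjamini-Hochberg, over all genes tested) under 0.05.

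At the outset the membrane proteases and Timp2 were already expressed, and the other genes were low or silent. Per kilobase of exon, untreated cells held 9.04 ± 1.04 CPM per kb of Mmp14 (SD, n = 3), 6.39 ± 0.618 of Mmp15, 5.96 ± 0.782 of Timp2 and 3.60 ± 0.461 of Mmp16. Mmp2, Mmp11, Timp1, Timp3 and Timp4 were each at or under 0.746 CPM per kb. Mmp3 had 0 counts in all 9 libraries of day 0, where the upper limit of 3 counts amounts to at most 0.407 CPM in a library. Such limits cover counting error only.

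Priming towards cones left no member called against untreated cells by edgeR, in a comparison where 0% of all genes tested were called higher and 0% lower. At an unadjusted p under 0.05 there was 1 member, Timp3, and DESeq2 and voom each called 0. Priming towards rods raised Mmp15 and Timp3 by edgeR, where 6.71% of all genes were called higher and 3.56% lower. Mmp15 stood at 37.5, 30.9 and 35.0 CPM in the untreated libraries and at 50.5, 50.3 and 58.4 CPM in the rod primed libraries, with no overlap (0.62 ± 0.17, adjusted p = 0.0182). Timp3 stood at 1.15, 0.534 and 1.09 CPM untreated and at 4.88, 2.12 and 8.62 CPM rod primed, again without overlap (2.56 ± 0.56, adjusted p = 0.00345). Both calls were lost without rod primed replicate 3 (adjusted p = 0.102 and 0.0751), and that of Mmp15 also without untreated replicate 2. That replicate held 115 CPM of summed mesenchyme markers, against 19.1 and 29.7 CPM in the other rod primed libraries and 3.20 to 24.2 CPM in untreated cells; their part in the result was not tested. Mmp16 (-0.45 ± 0.18, adjusted p = 0.127) and Timp4 (-1.50 ± 0.67, adjusted p = 0.159) had negative differences that missed edgeR's threshold. The tools called different members here: DESeq2 called Mmp11, Mmp14, Mmp15 and Timp3, whereas voom called Mmp14, Mmp15 and Mmp16 and not Timp3.

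Between the primed groups themselves edgeR called 0 of 10 members, beside 2.5% of all genes called higher with cone priming and 4.77% lower. At an unadjusted p under 0.05 there were 3 members higher in cone primed cells (Mmp16, Timp1, Timp4) and 5 lower (Mmp2, Mmp11, Mmp14, Mmp15, Timp3). DESeq2 called Mmp11, Mmp15 and Timp1, and voom called Mmp11, Mmp14 and Mmp15. With the compared libraries alone edgeR called 3 members (Mmp14, Mmp15 and Timp4), and with the replicate number as a block 2 (Mmp15 and Timp1). The sizes were -0.42 ± 0.15 for Mmp14 (adjusted p = 0.106), -0.53 ± 0.17 for Mmp15 (adjusted p = 0.0590) and -1.12 ± 0.38 for Mmp11 (adjusted p = 0.0713) by edgeR. For Timp1 all 3 rod primed libraries had 0 counts, and the cone primed libraries had 3, 0 and 8 counts, of which only those of replicate 3 exceeded the floor of 3 counts per library, and without it the adjusted p was 0.353.

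**Figure D1:**
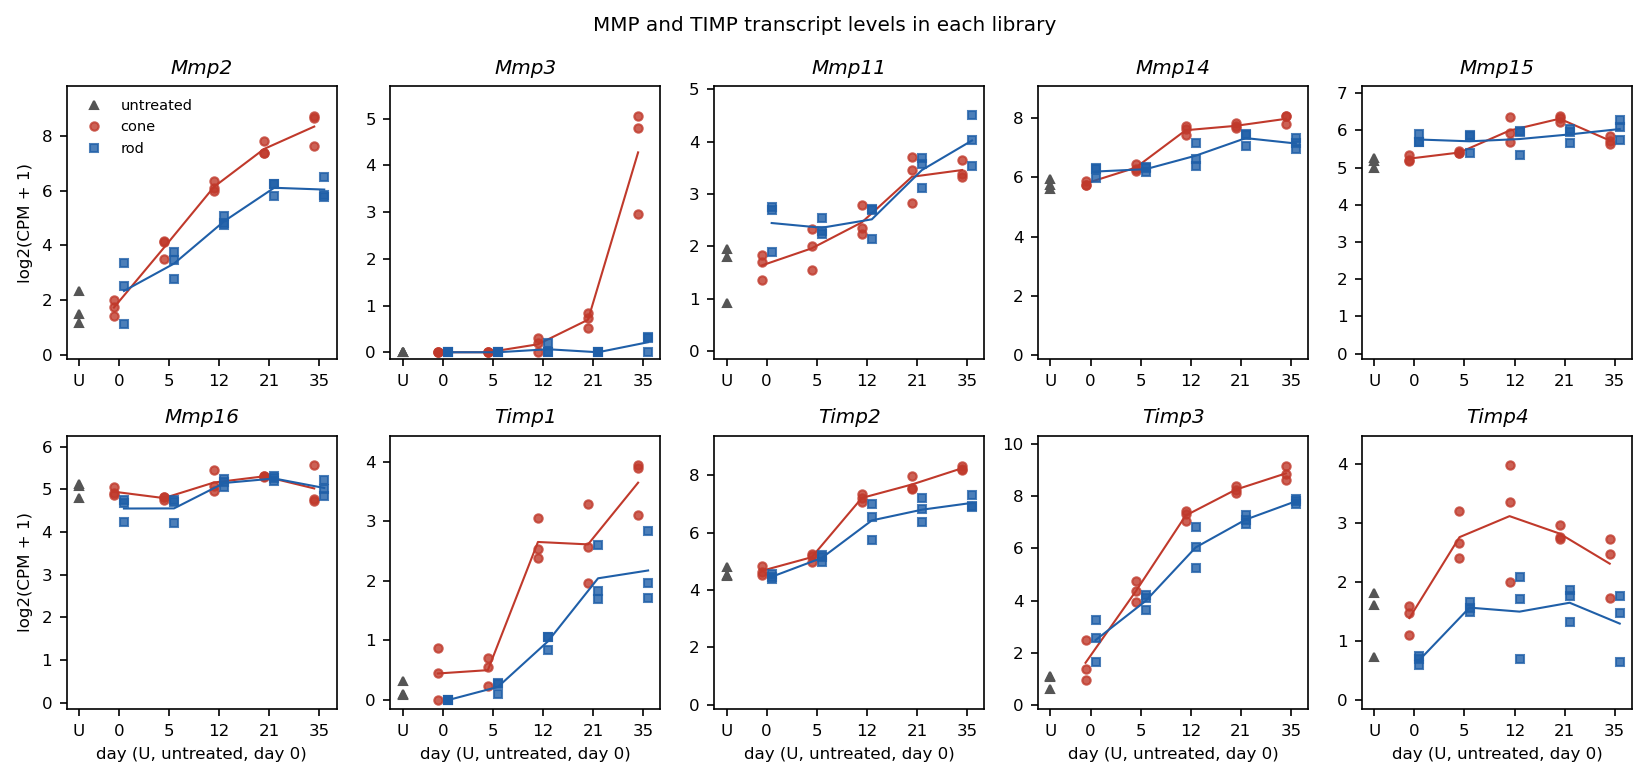
Transcript level of each gene as log2(CPM + 1) in every library (y axis) by day (x axis; U, untreated cells of day 0; day 0, primed cells). Circles are cone libraries, squares rod libraries and triangles untreated libraries, and lines join the group means. Mmp2, Timp2 and Timp3 climb in both treatments and end higher in cone cells, Mmp3 is near 0 until day 35 of cone induction, with 22.1 CPM at day 35 against 0.167 CPM in rod cells, and Mmp16 stays between 17.5 and 46.2 CPM throughout.

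Mmp14, the membrane-type protease that activates the Mmp2 precursor, rose in both treatments, and was called from day 5 on in cone cells and from day 12 on in rod cells, a difference in timing that was not itself tested. Its levels were 52.2, 58.4 and 53.0 CPM in cone primed cells, 87.7, 74.0 and 77.3 CPM at day 5 and 266, 222 and 270 CPM at day 35 of cone induction. In rod cells it went from 76.6, 62.5 and 79.5 CPM when primed to 80.8, 71.2 and 78.2 CPM at day 5 and 123, 142 and 160 CPM at day 35. No library of cone day 35 overlapped with rod day 35. Against primed cells the change was 0.54 ± 0.15 at day 5 (adjusted p = 0.0117) and 2.21 ± 0.16 at day 35 (adjusted p = 5.83e-12) in cone cells. In rod cells it was 0.07 ± 0.15 at day 5 (adjusted p = 0.781), 0.57 ± 0.15 at day 12 (adjusted p = 0.00371) and 0.96 ± 0.15 at day 35 (adjusted p = 7.27e-06). The rod call of day 12 was lost without rod day 12 replicate 1 (adjusted p = 0.0880), which at 144 CPM stood above the others at 83.5 and 97.8 CPM.

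Mmp15, a relative of Mmp14 in the membrane, moved within a narrower range. In cone cells it rose from 36.8 ± 2.37 CPM (SD, n = 3) when primed to 78.5 ± 4.83 CPM at day 21 (1.09 ± 0.17, adjusted p = 5.36e-06) and stood at 52.0 ± 4.00 CPM at day 35. In rod cells it stood at 53.0 ± 4.62 CPM when primed and was called by edgeR at no later day, reaching 65.3 ± 12.0 CPM at day 35 (0.30 ± 0.17, adjusted p = 0.134). The cone call of day 35 (0.50 ± 0.17, adjusted p = 0.0140) was lost on leaving out any of 3 libraries, with an adjusted p up to 0.0650 without cone primed replicate 1. Mmp16, the third membrane-type protease, was not called by edgeR in any comparison of cone cells with primed or rod cells, while voom called it at cone day 21 against primed cells. In rod cells it rose from 17.8, 24.5 and 25.9 CPM when primed to 35.4, 38.6 and 37.6 CPM at day 21 (0.71 ± 0.18, adjusted p = 0.00234). At day 35 its rod call (0.48 ± 0.18, adjusted p = 0.0282) was lost without any of 3 libraries, with an adjusted p up to 0.176 without rod primed replicate 1.

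Mmp2, a secreted gelatinase that cleaves denatured collagen and basement membrane collagen, had the largest rise of the proteases whose primed libraries were above 0. The cone primed libraries held 2.39, 3.07 and 1.68 CPM, and the cone libraries of day 35 held 422, 198 and 400 CPM. The rod primed libraries held 4.75, 1.21 and 9.25 CPM, and the rod libraries of day 35 held 53.7, 90.3 and 55.9 CPM. Every cone library of days 12, 21 and 35 was above every rod library of the same day. Between those ends the cone mean was 14.5 ± 3.57 CPM at day 5, 70.0 ± 9.43 CPM at day 12 and 185 ± 34.9 CPM at day 21. The rod mean was 9.51 ± 3.39 CPM, 28.6 ± 3.42 CPM and 68.5 ± 11.4 CPM at the same days, and the rod libraries of days 21 and 35 overlapped. Against primed cells Mmp2 was called at every day of cone induction, from 2.57 ± 0.46 at day 5 (adjusted p = 0.000260) to 7.13 ± 0.49 at day 35 (adjusted p = 2.61e-12). In rod cells it was not called at day 5 (0.88 ± 0.43, adjusted p = 0.162) and rose by day 35 (3.69 ± 0.42, adjusted p = 4.16e-08).

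Mmp3, a stromelysin that cleaves many matrix proteins and activates other MMP precursors, appeared late, and mainly in cone cells. Its counts were 0 in every library of days 0 and 5, 2, 2 and 0 in cone cells at day 12, 6, 5 and 9 at day 21, and 381, 79 and 335 at day 35. In rod cells the counts were 2, 0 and 0 at day 12, 0 in all 3 libraries at day 21 and 0, 3 and 4 at day 35. Cone day 35 thus held 32.5, 6.78 and 27.0 CPM, with replicate 2 lowest, and rod day 35 held at most 0.258 CPM. Set against a floor of 3 counts per library, the cone mean was at least 2.86-fold above rod cells at day 21. It was at least 71.0-fold above cone primed cells at day 35. These bounds concern the group at 0 and leave out the spread of the cone libraries. At day 35 the pooled counts of 795 and 7 gave a cone to rod ratio of 126 (95% exact binomial interval 60.8 to 314, counting error only), and edgeR called the difference (adjusted p = 6.00e-05). The call of day 21 (adjusted p = 0.0291) was lost on leaving out any of 5 of the 6 libraries, with an adjusted p up to 0.0877 without rod day 21 replicate 3. The call of day 35 was kept on leaving out each of its 6 libraries (adjusted p up to 0.000614).

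Mmp11, another secreted stromelysin, rose slowly and to similar levels in both treatments. In cone cells it went from 2.14 ± 0.519 CPM when primed to 9.37 ± 3.05 CPM at day 21 and 10.0 ± 1.39 CPM at day 35 (2.22 ± 0.37, adjusted p = 1.03e-05). In rod cells it went from 4.64 ± 1.68 CPM to 10.1 ± 2.20 CPM at day 21 and 15.8 ± 5.55 CPM at day 35 (1.75 ± 0.34, adjusted p = 0.000102). Cone and rod libraries of day 35 overlapped, at 9.01 to 11.6 CPM and 10.5 to 21.6 CPM, and the difference was not called (-0.66 ± 0.32, adjusted p = 0.209).

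Timp2, which both inhibits MMPs and serves in the activation of Mmp2, was the main inhibitor transcript at the start and kept rising. Its levels were 22.3, 27.7 and 23.6 CPM in cone primed cells and 321, 288 and 298 CPM at day 35 of cone induction (3.62 ± 0.23, adjusted p = 7.39e-13). They were 20.8, 19.9 and 22.4 CPM in rod primed cells and 119, 118 and 157 CPM at day 35 of rod induction (2.64 ± 0.23, adjusted p = 2.64e-10). Cone and rod cells of day 5 overlapped at 30.5 to 37.4 CPM and 30.5 to 36.6 CPM, and from day 12 on no cone library overlapped with a rod library of its day. The rod call of day 5 (0.68 ± 0.22, adjusted p = 0.0332) was lost without any of 5 of the 6 libraries, with an adjusted p up to 0.103 without rod primed replicate 2.

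Timp3, the matrix-bound inhibitor, had the largest fitted rise of the inhibitors in cone cells. It stood at 1.64, 4.69 and 0.943 CPM in cone primed cells and at 454, 391 and 571 CPM at day 35 of cone induction, 182-fold higher by the fit (7.51 ± 0.47, adjusted p = 5.06e-13). It stood at 4.88, 2.12 and 8.62 CPM in rod primed cells and at 234, 225 and 208 CPM at day 35 of rod induction (5.39 ± 0.42, adjusted p = 6.32e-11). The rise was under way at day 5 in both, with 19.9 ± 5.89 CPM in cone cells (2.94 ± 0.44, adjusted p = 3.03e-05) and 15.1 ± 3.24 CPM in rod cells (1.51 ± 0.41, adjusted p = 0.0109). The rod call of day 5 was lost without rod primed replicate 2 (adjusted p = 0.0780). Counts of the overlapping Syn3 were 107, 157 and 127 at cone day 35, where Timp3 had 5318, 4552 and 7070.

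Timp1, an inducible soluble inhibitor, began near the floor. Its counts were 3, 0 and 8 in cone primed cells and 168, 89 and 171 at cone day 35, or 14.3, 7.64 and 13.8 CPM (4.94 ± 0.64, adjusted p = 4.19e-07). In rod cells all primed libraries had 0 counts. The libraries of day 35 had 27, 36 and 95 counts, or 2.29, 2.91 and 6.13 CPM, with a mean at least 11.6-fold higher against the floor. Timp4, the inhibitor with the most restricted expression in adult tissues, followed its own course. In cone cells it was 1.76, 2.02 and 1.15 CPM when primed, 8.22, 4.32 and 5.29 CPM at day 5, 14.7, 9.24 and 3.02 CPM at day 12 and 5.63, 2.32 and 4.52 CPM at day 35. Its cone mean was highest at day 12 (8.98 ± 5.84 CPM), where the libraries spread widely, and the calls against primed cells ran from 2.42 ± 0.55 at day 12 (adjusted p = 0.000654) down to 1.32 ± 0.55 at day 35 (adjusted p = 0.0422). The day 35 call was lost without any of 5 of the 6 libraries, with an adjusted p up to 0.153 without cone primed replicate 3, and the day 5 call (adjusted p = 0.0160) without 2 of them. In rod cells Timp4 ran from 0.603 ± 0.0899 CPM when primed to 2.17 ± 0.594 CPM at day 21 (1.83 ± 0.65, adjusted p = 0.0207) and 1.58 ± 0.928 CPM at day 35, where it was not called (1.40 ± 0.66, adjusted p = 0.0753).

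Counted over the 10 genes, cone induction raised 4, 8, 9 and 9 at days 5, 12, 21 and 35 against cone primed cells. Over all genes tested, 12.2%, 26.7%, 29.4% and 31.1% were called higher at those days and 10.2%, 21.7%, 23.2% and 26.5% lower. Rod induction raised 2, 7, 8 and 7 of the 10 genes against rod primed cells. There, 8.76%, 24.2%, 27.2% and 29.4% of all genes were called higher and 8.79%, 18.2%, 23.6% and 26.2% lower. No member was called lower by edgeR at any of these days, and at an unadjusted p under 0.05 none was lower either; DESeq2 and voom called 4 to 10 members in cone cells and 3 to 8 in rod cells. Mmp16 was the one gene not called at day 35 of cone induction, and Mmp3, Mmp15 and Timp4 were the 3 not called at day 35 of rod induction. For medians, genes with a group at 0 counts were set to their bounds, or to 0 where no difference could be bounded. The median change of the 10 genes at day 35 was then 2.92 in cone cells and 1.57 in rod cells. The fitted medians were 2.92 and 2.20, against fitted medians of 0.03 and 0.04 over all genes.

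**Figure D2:**
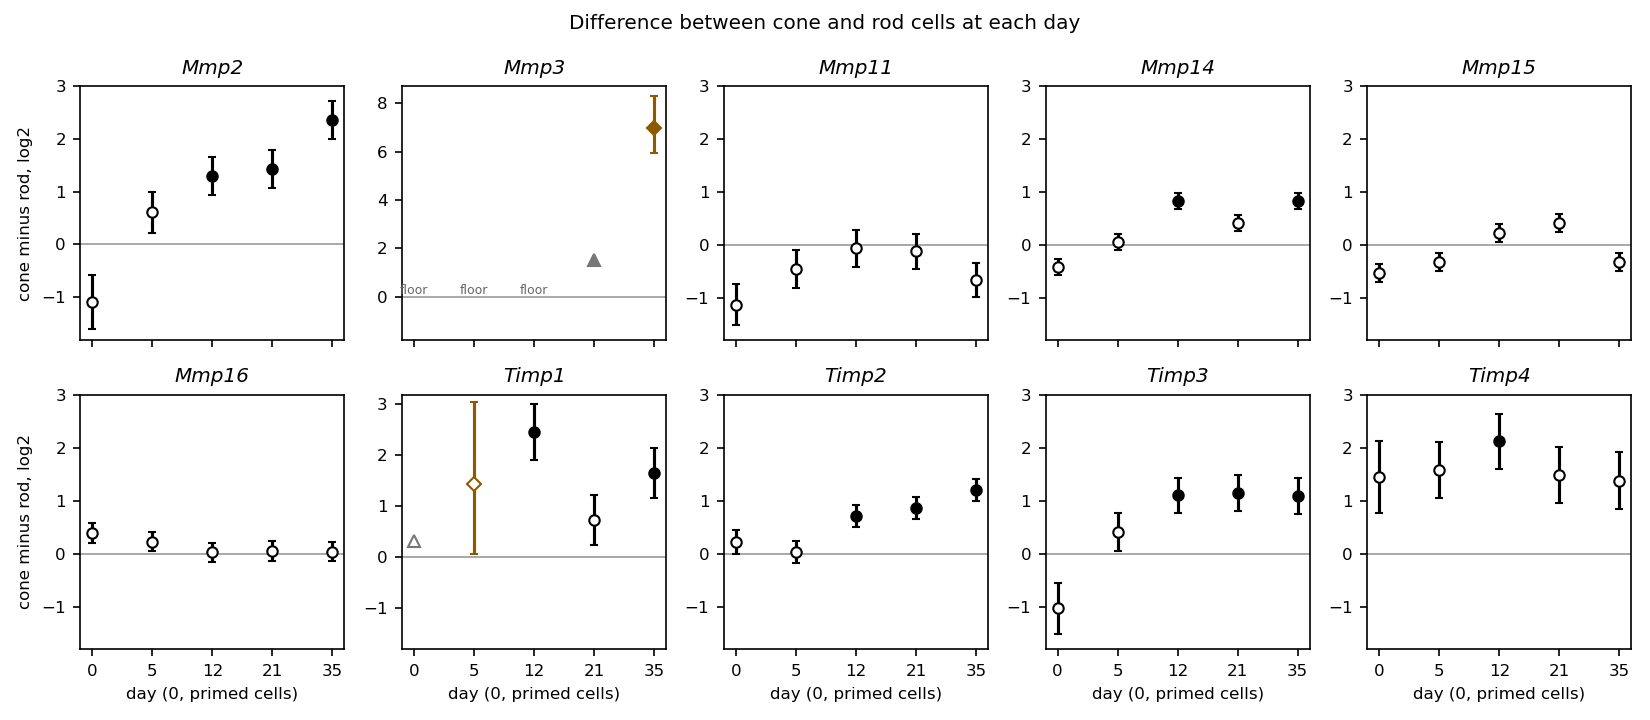
Difference of cone minus rod cells on the log2 scale (y axis) at each day (x axis) for each gene. Circles are edgeR estimates with SE bars, triangles are lower bounds against a floor of 3 counts per library, diamonds are ratios of pooled counts with 95% intervals of counting error, "floor" marks days where neither group exceeded the floor, and filled symbols were called. At days 12, 21 and 35 the filled symbols of Mmp2, Mmp14, Timp1, Timp2, Timp3 and Timp4 lie above 0, from 0.70 for Timp2 at day 12 to 2.45 for Timp1 at day 12, while Mmp11, Mmp15 and Mmp16 have no filled symbol.

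Cone and rod cells of the same day were then compared, the question the series was built on. At day 5 edgeR called 0 of 10 members, beside 3.48% of all genes higher and 5.8% lower in cone cells. Timp4 alone was under an unadjusted p of 0.05 (1.59 ± 0.53, adjusted p = 0.0571), and both DESeq2 and voom called it. At day 12 there were 6 members higher in cone cells and 0 lower (all genes, 5.98% and 4.12%), of which 2, Mmp2 and Timp1, were called with the libraries of that day alone. Then at day 21 there were 4 and 0 (5.86% and 3.14%), and at day 35 there were 6 and 0 (7.77% and 4.51%). At an unadjusted p under 0.05 no member was lower in cone cells from day 5 on. The median difference, with bounds or 0 set as above, was 0.77, 0.79 and 1.14 at days 12, 21 and 35. The fitted medians were 0.97, 0.79 and 1.14, against fitted medians of -0.01, 0.03 and 0.02 over all genes.

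Of the proteases, Mmp2 differed by 1.29 ± 0.36 at day 12 (adjusted p = 0.0206), 1.43 ± 0.36 at day 21 (adjusted p = 0.0101) and 2.35 ± 0.36 at day 35 (adjusted p = 7.11e-05), a 5.11-fold difference at the last day. Mmp14 differed by 0.83 ± 0.15 at day 12 (adjusted p = 0.000540) and 0.84 ± 0.15 at day 35 (adjusted p = 0.000422), and missed the threshold at day 21 (0.41 ± 0.15, adjusted p = 0.0935) although its libraries did not overlap. Mmp15 ran from -0.32 ± 0.17 at day 5 through 0.42 ± 0.17 at day 21 to -0.33 ± 0.17 at day 35, and Mmp16 was within 0.23 of 0 at each of those days. Neither was called. The Mmp2 call of day 12 was lost without cone day 12 replicate 3 (adjusted p = 0.0886) or rod day 12 replicate 2, and that of day 21 without cone day 21 replicate 1 (adjusted p = 0.0534), whereas its call of day 35 was kept (adjusted p up to 0.00143).

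Of the inhibitors, Timp2 differed by 0.70 ± 0.21 at day 12 (adjusted p = 0.0292), 0.86 ± 0.21 at day 21 (adjusted p = 0.00834) and 1.20 ± 0.21 at day 35 (adjusted p = 0.000262). Timp3 differed by a like amount at each of those days, 1.10 ± 0.34, 1.15 ± 0.34 and 1.09 ± 0.33 (adjusted p = 0.0362, 0.0306 and 0.0314). Its libraries did not overlap, but its calls were lost without 4, 6 and 5 of the 6 libraries in turn, with adjusted p up to 0.173 without rod day 12 replicate 2, 0.0975 without rod day 21 replicate 1 and 0.133 without cone day 35 replicate 3. Timp2 lost its calls without 4 libraries at day 12 and 2 at day 21 (adjusted p up to 0.178 and 0.0778, each without rod replicate 2 of that day) and without none at day 35. That rod day 12 replicate 2 held 52.1 CPM of Timp2 and 36.6 CPM of Timp3, below the others at 93.1 and 126 CPM and at 65.8 and 111 CPM. Without this library 2 of the 6 calls of day 12 were left, those of Mmp14 and Timp1. It also stood apart in marker sums, with 873 CPM of photoreceptor markers against 90.4 and 165 CPM in the others. It held 225 CPM of mural markers against 813 and 388 CPM, and 101 CPM of mesenchyme markers against 157 and 232 CPM. Cone day 12 replicate 2 likewise had the highest photoreceptor sum of its group, 331 CPM against 91.5 and 96.8 CPM. That cone library was lowest in mural markers but not in mesenchyme markers. The part of these markers in the day 12 results was not tested. Timp1 differed by 2.45 ± 0.54 at day 12 (adjusted p = 0.00411) and 1.64 ± 0.49 at day 35 (adjusted p = 0.0272), the second lost without 4 libraries (adjusted p up to 0.134 without rod day 35 replicate 1). At day 21 its libraries overlapped (0.73 ± 0.50, adjusted p = 0.422). Timp4 was called at day 12 (2.12 ± 0.52, adjusted p = 0.00893), where the lowest cone library at 3.02 CPM lay under the highest rod library at 3.24 CPM, and had differences of 1.37 to 1.59 without a call at the other days. The call of day 12 was lost without cone day 12 replicate 1 (adjusted p = 0.0785) or rod day 12 replicate 2.

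Averaged over days, 5 to 35, 6 of the 10 genes were called higher in cone cells by edgeR and 0 lower, where 15.6% of all genes were called higher and 12.2% lower. They were Mmp2 (1.42 ± 0.18, adjusted p = 1.07e-06), Mmp14 (0.53 ± 0.08, adjusted p = 4.94e-06), Timp2 (0.70 ± 0.10, adjusted p = 1.03e-05), Timp3 (0.93 ± 0.17, adjusted p = 0.000143), Timp4 (1.64 ± 0.26, adjusted p = 2.74e-05) and Timp1. The Timp1 estimate includes a day at the floor and is given as a call alone (adjusted p = 0.000412), and Mmp3 had no usable mean for the same reason. These 6 calls were kept on leaving out each of 24 libraries in turn. Mmp11 (-0.32 ± 0.17, adjusted p = 0.162), Mmp15 (-0.00 ± 0.08) and Mmp16 (0.08 ± 0.09) were not called by edgeR, nor was any member lower at an unadjusted p under 0.05. DESeq2 called 7 members, with Mmp3 added, and voom called 8, with Mmp3 higher and Mmp11 lower.

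Whether the cone minus rod difference itself changed over days 0, 5, 12, 21 and 35 was tested by an F test, which called 9.22% of all genes and 4 of the 10 members. Mmp14 (adjusted p = 0.000993) and Mmp2 (adjusted p = 0.00624) had differences of -0.42 ± 0.15 and -1.09 ± 0.51 between primed cells, neither of them called (adjusted p = 0.106 and 0.221), and were called higher in cone cells at day 35. The Mmp2 libraries of primed cells overlapped, and without rod primed replicate 3 the difference was -0.22 (adjusted p = 0.928). Mmp15 (adjusted p = 0.0267) had estimates below 0 at days 0, 5 and 35 and above 0 at days 12 and 21, none of them called. Timp2 (adjusted p = 0.0448) went from 0.22 ± 0.22 at day 0 to 1.20 ± 0.21 at day 35. The last call was lost without any of 20 of the 30 libraries (adjusted p up to 0.101 without rod day 35 replicate 1) and that of Mmp15 without any of 4 (cone primed replicate 3, rod primed replicate 3, cone day 21 replicate 1 and rod day 21 replicate 2, up to 0.0609 for the last). Timp4, with differences of 1.37 to 2.12 at all 5 times, had an adjusted p of 0.919 for change. DESeq2's own test of change with day called 6 members, adding Mmp3 (adjusted p = 0.00842) and Timp3 (adjusted p = 0.00587), and voom called 4.

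**Figure D3:**
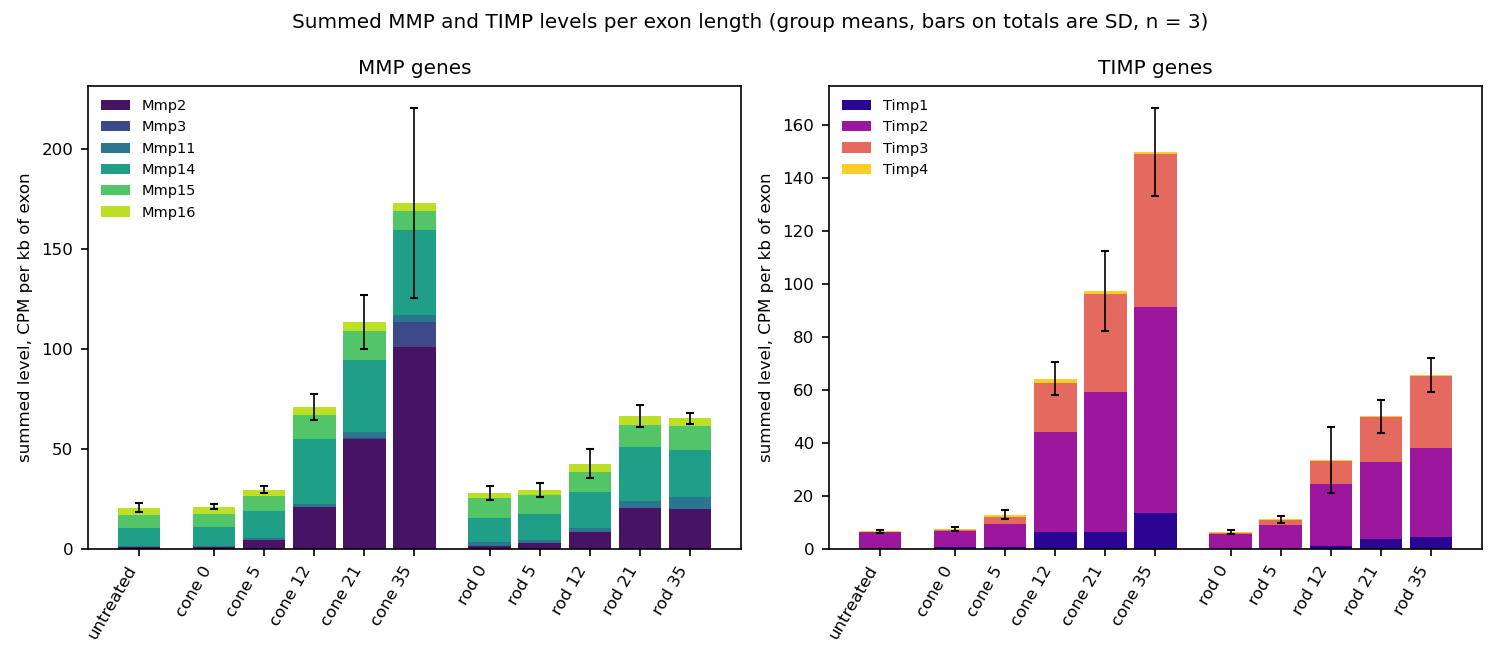
Summed level of the protease genes (left) and the inhibitor genes (right) in CPM per kb of exon (y axis) for each group and day (x axis). Coloured parts are group means of single genes and bars on the totals are SD over 3 libraries. Protease totals go from 20.5 in untreated cells to 173 at cone day 35 and 65.1 at rod day 35, and inhibitor totals from 6.52 to 150 and 65.6, with Mmp2 and Timp3 taking a growing part.

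Per exon length the make-up of both classes shifted. Mmp14 was the largest protease transcript in untreated cells with 44.1% of the protease sum, and Mmp2 held 3.36%. At day 35 Mmp2 held 57.3% in cone cells and 30.2% in rod cells, and Mmp14 held 25.5% and 36.5%. Among the inhibitors, Timp2 went from 91.2% in untreated cells to 52.2% at cone day 35 and 51.3% at rod day 35, while Timp3 went from 1.78% to 38.5% and 42.0%. The totals at day 35 were 173 ± 47.6 CPM per kb of proteases (SD, n = 3) in cone cells and 65.1 ± 2.64 in rod cells. The inhibitor totals were 150 ± 16.6 and 65.6 ± 6.55.

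The ratio of inhibitor to protease transcripts was higher at day 35 than at day 0 in both treatments, and cone and rod libraries of day 35 overlapped. It was 0.323 ± 0.0612 in untreated cells, 0.351 ± 0.0233 when primed towards cones and 0.221 ± 0.00517 when primed towards rods. At day 12 it was 0.906 ± 0.0208 in cone cells and 0.768 ± 0.187 in rod cells, and at day 35 it was 0.901 ± 0.185 and 1.01 ± 0.115, with libraries of 0.758 to 1.11 and 0.903 to 1.13. The ratio of Timp2 to Mmp14 went from 0.671 ± 0.160 in untreated cells to 1.84 ± 0.150 at cone day 35 and 1.42 ± 0.128 at rod day 35. At that day the lowest cone library, at 1.69, was above the highest rod library, at 1.50. These are ratios of transcripts, not of proteins, and carry no test.

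For Mmp2 and Timp2, the groups in falling order were cone day 35, cone day 21 and cone day 12, and after these the later rod groups. Cone days 35 and 21 overlapped for Mmp2, and cone day 12 overlapped with the next group, rod day 21 for Mmp2 and rod day 35 for Timp2. Timp3 placed rod day 35 (222 ± 13.1 CPM) between cone day 21 (303 ± 25.3 CPM) and cone day 12 (153 ± 18.9 CPM), with no overlap on either side. For Mmp11 the top group was rod day 35, but it overlapped with rod day 21, cone day 35 and cone day 21. For Mmp16 the groups from cone day 21 (38.6 ± 0.568 CPM) down to untreated cells (31.2 ± 3.99 CPM) each overlapped with the next. Across the 11 group means of log2 CPM, which share the culture time, the Pearson r between Mmp2 and Timp3 was 0.98, between Mmp2 and Mmp14 0.98, between Mmp2 and Timp2 0.98 and between Mmp11 and Timp4 0.11.

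The genes most like a member over the same 11 means were listed by r, passing over unnamed models. They were Fbn1 (r = 0.99), which encodes fibrillin-1 of microfibrils, Stat6 and Slc39a13 for Mmp2, and Tgfbi (r = 1.00), an extracellular matrix protein, P4ha1, a subunit of the collagen prolyl hydroxylase, and Kdelr3 for Timp3. For Timp2 they were Fam43a, Parp14 and Extl3, for Mmp14 Galnt10, Lrig3 and the chaperone gene Calr, and for Timp1 Ahnak2, Btbd11 and Gria3. Mmp11 had Echdc1, Igfbp4, a binder of insulin-like growth factors, and Mettl7a1, and Mmp15 had Fam84b, Ssr1 and Cdk5rap2. Mmp16 had Arl4c, Igsf9b and Rnf111 (r = 0.92 to 0.94), Timp4 had Dnajb5, Lekr1 and Adrbk2 (r = 0.93 to 0.97), and Mmp3, silent in most groups, had Fpgt, Elmo1 and Clcn7 (r = 0.92 to 0.94).

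Of 17 further MMP genes 9 were tested, and at day 35 of cone induction 7 were higher and 2 lower than when primed, against 3 and 2 in rod cells. Over all genes tested the shares were 31.1% higher and 26.5% lower in cone cells and 29.4% and 26.2% in rod cells, so the rod counts of these MMPs were near the background. Mmp19, a secreted protease, averaged 31.7 ± 9.25 CPM at cone day 35 and 24.9 ± 3.72 CPM at rod day 35 (SD, n = 3), from 3 counts or fewer in each primed library. Mmp24, a membrane-type protease of neurons, fell by 4.81 ± 0.64 in cone cells (adjusted p = 3.73e-07) and by 5.01 ± 0.70 in rod cells (adjusted p = 9.17e-07). Between cone and rod averaged over days, 4 of the 9 were higher and 1 lower (all genes, 15.6% and 12.2%). Mmp19 was at 1.04 ± 0.22 (adjusted p = 0.000626) and Mmp28 at 0.65 ± 0.19 (adjusted p = 0.0124).

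Of 7 ADAM proteases tested, which shed cell-surface proteins, 6 were higher at cone day 35 and 3 at rod day 35 than when primed, and none lower. Over all genes tested, 31.1% were called higher and 26.5% lower at cone day 35, and 29.4% and 26.2% at rod day 35. Adam15 rose in both (3.26 ± 0.18 and 2.70 ± 0.18, adjusted p = 8.61e-14 and 3.40e-12), and Adam9 and Adam17 were also called higher in both, with Adam17 at 1.61 ± 0.13 in cone cells (adjusted p = 2.55e-11) and Adam9 at 1.04 ± 0.15 in rod cells (adjusted p = 9.07e-07). Averaged over days, 4 were higher in cone cells than in rod cells, led by Adam19 (0.96 ± 0.18, adjusted p = 0.000209) and Adam8 (0.89 ± 0.23, adjusted p = 0.00361). In that comparison 15.6% of all genes were called higher and 12.2% lower. Of 18 ADAMTS proteases tested, 13 were higher and 2 lower at cone day 35, and 12 and 4 at rod day 35. The 4 lower were near the share of all genes. Adamts12 and Adamts16 rose most in both, by 6.38 ± 0.76 and 5.09 ± 0.60 in cone cells (adjusted p = 5.43e-08 and 4.16e-08) and by 5.43 ± 0.69 and 4.61 ± 0.45 in rod cells (adjusted p = 2.08e-07 and 2.66e-09). Between treatments this family split, with 5 members up and 5 down in cone cells when days were averaged. Adamts4, an aggrecanase, was higher (1.85 ± 0.14, adjusted p = 5.92e-11), and Adamts16 was lower (-2.41 ± 0.20, adjusted p = 3.94e-10).

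Of 9 tested genes of convertases and plasminogen activation, which start MMP cascades, 8 were higher at cone day 35 and 6 at rod day 35, and none lower. Over all genes tested, 31.1% were called higher and 26.5% lower at cone day 35, and 29.4% and 26.2% at rod day 35. Plat, the tissue plasminogen activator, rose by 4.57 ± 0.32 in cone cells (adjusted p = 4.28e-12) and 3.50 ± 0.30 in rod cells (adjusted p = 3.37e-10). Plau, the urokinase, averaged 44.0 ± 11.7 CPM and 15.2 ± 6.22 CPM at day 35 (SD, n = 3), from 7 counts or fewer in each primed library. Averaged over days, 6 were higher in cone cells and none lower (all genes, 15.6% and 12.2%). They were led by St14, the gene of matriptase (2.58 ± 0.24, adjusted p = 3.37e-09), and Pcsk5 (0.64 ± 0.12, adjusted p = 0.000184). Of 9 tested inhibitors outside the TIMPs, 6 were higher and 3 lower at cone day 35 and 5 and 2 at rod day 35. The counts of those lower were near the shares of all genes. A2m, the broad protease trap alpha-2-macroglobulin, rose by 8.72 ± 0.62 and 7.44 ± 0.56 (adjusted p = 4.68e-12 and 3.38e-11). Averaged over days, 4 were higher in cone cells and 1 lower (all genes, 15.6% and 12.2%), the 1 being near the share of all genes. Spock1, a proteoglycan, was 2.04 ± 0.11 higher in cone cells (adjusted p = 2.66e-13), and Reck, a membrane-anchored MMP inhibitor, was the 1 called lower.

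Of 16 matrix substrates, all tested, 14 were higher and 0 lower at day 35 in cone cells, and likewise 14 and 0 in rod cells. Over all genes tested, 31.1% were called higher and 26.5% lower in cone cells, and 29.4% and 26.2% in rod cells. Col18a1, the collagen of basement membranes that yields endostatin, stood at 816 ± 33.6 CPM at cone day 35 and 6.65 ± 1.91 CPM when primed (6.93 ± 0.42, adjusted p = 2.43e-13), and Lama4, a laminin chain of vessels, rose by 7.71 ± 0.97 (adjusted p = 1.34e-07). In rod cells Nid1, the basement membrane linker nidogen-1, rose by 6.43 ± 0.55 (adjusted p = 2.33e-10) and Lama4 by 5.80 ± 0.85 (adjusted p = 1.94e-06). Averaged over days, 7 were higher in cone cells and 2, Col18a1 and Bcan, were lower (all genes, 15.6% and 12.2%), the 2 being near the share of all genes. Tnc, the gene of tenascin-C, was higher (1.53 ± 0.20, adjusted p = 1.06e-06), and Bcan, the gene of the neural proteoglycan brevican, was lower (-1.70 ± 0.22, adjusted p = 1.38e-06).

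**Figure D4:**
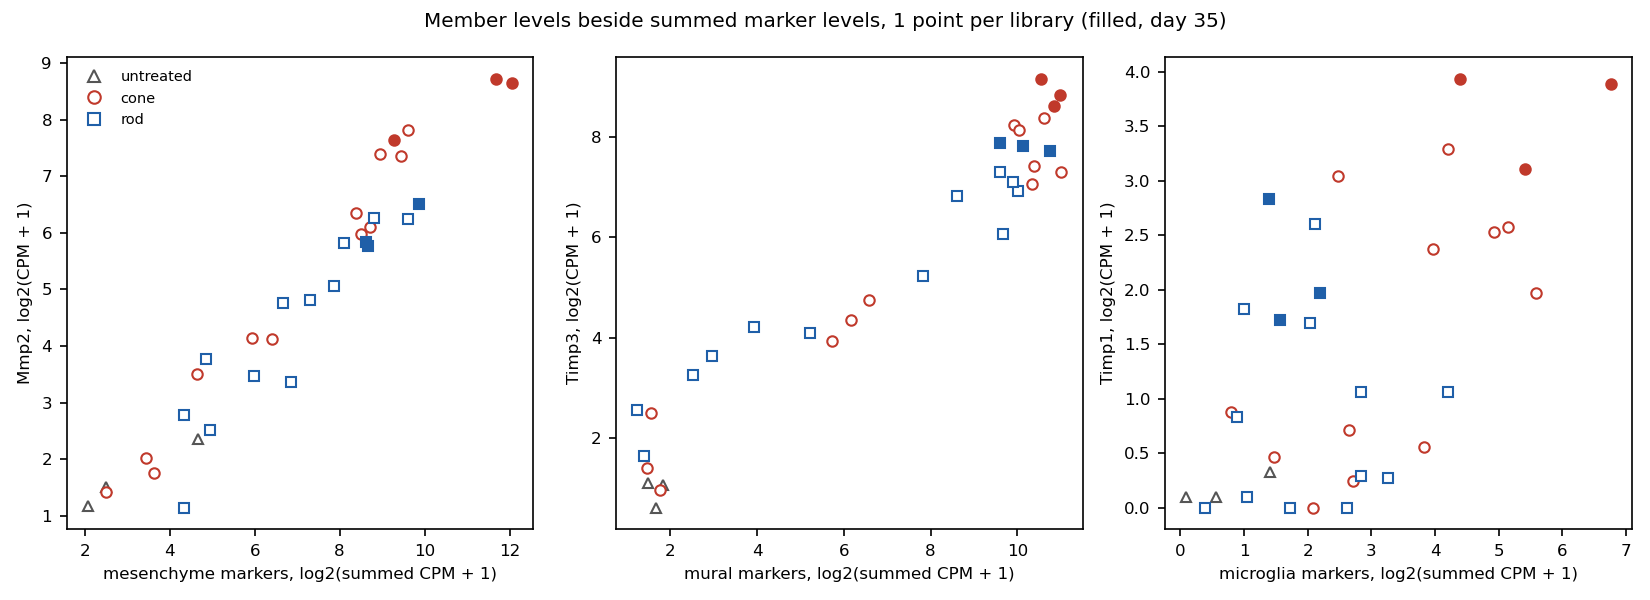
Level of Mmp2, Timp3 and Timp1 as log2(CPM + 1) (y axes) beside the summed level of mesenchyme, mural and microglia markers as log2(summed CPM + 1) (x axes), with 1 point per library. Circles are cone, squares rod and triangles untreated libraries, and filled points are day 35. Mmp2 and Timp3 are high where the mesenchyme and mural sums are high, and the cone libraries of day 35 reach mesenchyme sums of 618 to 4275 CPM against 390 to 932 CPM in rod libraries.

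Markers of some other cell types rose over days as the members did. The mesenchyme and mural sums rose in both treatments and the microglia sum rose in cone cells, while the endothelial sum fell. The sum of 10 mesenchyme markers, which include Col1a1 and Dcn, lay between 3.20 and 24.2 CPM before treatment, between 4.61 and 11.5 CPM after cone priming and between 19.1 and 115 CPM after rod priming. The sums of day 35 were 3298, 618 and 4275 CPM in cone cells and 407, 932 and 390 CPM in rod cells, with all 10 markers detected in both. Between cone and rod cells 2 mesenchyme markers were called higher and 1 lower at day 5, and 4 and 1 at day 12. The counts were 2 and 0 at day 21 and 6 and 0 at day 35. Averaged over days, 5 were called higher in cone cells and 3, Dcn, Postn and Foxc1, were called lower. Cone day 35 replicate 2, with the lowest sum of its group, was also lowest for Mmp2 (198 CPM), Mmp3 (6.78 CPM) and Timp1 (7.64 CPM). It was lowest for Mmp11, Mmp14, Timp2, Timp3 and Timp4 too, but not for Mmp15, and was highest for Mmp16 (46.2 CPM against 25.7 and 26.2 CPM). Rod day 35 replicate 2, with the highest sum of its group, was highest for Mmp2 (90.3 CPM) and for no other member. Leaving cone day 35 replicate 2 out gave cone minus rod differences at day 35 of 2.61 for Mmp2, 0.90 for Mmp14, 1.22 for Timp2 and 1.19 for Timp3, all still called.

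The 6 mural markers of pericytes and smooth muscle summed to 1.79 to 2.58 CPM in untreated cells, 1487 to 2012 CPM at cone day 35 and 769 to 1718 CPM at rod day 35. At day 12 they summed to 1287 to 2069 CPM in cone cells and 225 to 813 CPM in rod cells, and 2 of the 5 tested were called higher in cone cells. At days 21 and 35 edgeR called 0 of them (0 at an unadjusted p under 0.05), and averaged over days it called 3, Myh11, Tagln and Acta2, all higher in cone cells. The 10 microglia markers summed to 20.1 to 107 CPM at cone day 35 and 1.61 to 3.56 CPM at rod day 35, and 8 of the 8 tested were called higher in cone cells at that day. In untreated cells they summed to 0.0679 to 1.66 CPM with Cx3cr1, Ptprc and Trem2 at 0. The Muller glia sum of 8 markers was 5319 to 5414 CPM at cone day 35 and 4997 to 6598 CPM at rod day 35, from 799 to 927 CPM in untreated cells. Between cone and rod cells, 0 of these markers were called higher and 3 lower at day 5, and 1 and 5 at day 12. The counts were 1 and 0 at day 21 and 1 and 2 at day 35. Averaged over days, Vim was called higher in cone cells, and Dkk3, Rlbp1, Abca8a and Kcnj10 were called lower. The 6 endothelial markers summed to 148 to 236 CPM at cone day 35 and 58.0 to 107 CPM at rod day 35, with Cldn5 at 0 in both, against 319 to 375 CPM in untreated cells, where Cdh5 was at 0. Kdr made up nearly all of this sum, at 344 ± 27.9 CPM in untreated cells, 174 ± 54.7 CPM at cone day 35 and 69.1 ± 33.5 CPM at rod day 35 (SD, n = 3). By day 35 Kdr fell against primed cells in both treatments, whereas Pecam1 and Emcn rose in cone cells and Emcn rose in rod cells. Pecam1 went from 0.255 ± 0.262 CPM in cone primed cells to 2.33 ± 1.60 CPM at cone day 35, and Pecam1 and Kdr were called higher in cone than in rod cells at that day. The 6 markers of retinal pigment epithelium summed to 22.7 to 36.9 CPM at cone day 35 and 10.0 to 12.5 CPM at rod day 35, with Rpe65 and Tyr at 0 in the latter, and both tested, Dct and Mitf, were called higher in cone cells at days 21 and 35. The 8 astrocyte markers summed to 391 to 516 CPM at cone day 35 and 403 to 481 CPM at rod day 35. Of these, 7 rose and Slc1a2 fell in cone cells by day 35 against primed cells, and 6 rose and Slc1a2 fell in rod cells. Between treatments the astrocyte calls were mixed. Pax2 and Agt were called lower with cone induction than with rod induction at day 5, and Agt at day 12. Slc1a2, Gfap and Aqp4 were called higher at day 21, and none was called at day 35. Averaged over days, Gfap and Aqp4 were called higher and Pax2 and Agt lower in cone cells. The part of these cell types in the MMP and TIMP results was not tested.

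The deposited TPM values (transcript abundance scaled to length and library) did not follow the counts. Over genes with at least 20 counts in a library, Spearman's rho between counts per exon length and TPM was 0.343 to 0.453 across the 33 libraries, and 28.4% to 42.5% of those genes were listed at a TPM of 0. Timp3 was listed at 13.3, 19.2 and 22.9 TPM at cone day 35 and its opposite-strand neighbour Syn3 at 201, 154 and 285 TPM, where the counts were 5318, 4552 and 7070 for Timp3 and 107, 157 and 127 for Syn3. The mitochondrial genes mt-Nd6 and mt-Co1, which lie on opposite strands, stood at 6277 to 13487 TPM for mt-Nd6 and 66.5 to 103 TPM for mt-Co1 at cone day 35, beside 1575 to 3370 and 30727 to 59760 counts. Levels here therefore rest on the counts, and under limma on the TPM values 0 to 3 members were called in any comparison.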

How the data were processed

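Bulk RNA was sequenced from 33 libraries of mouse retinal cells in 11 groups of 3, with Takara low-input kits per the labels' protocols. The authors deposited raw read counts per gene for each library, and separate tables with TPM, FPKM and coverage (signal) per gene, per the file headers. The submitters' processing notes name HISAT2, StringTie, HTSeq and the build GRCm38; their versions, their roles and the strand setting are not given in the sources used here. FPKM and coverage were not used, and TPM served only as an alternative (limma 3.58.1 on log2(TPM + 1)). Rows that name no gene were left out of library sizes; 26.9% to 34.9% of the counted reads of a library fell in genes.

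Counts were filtered by group (minimum count 10), scaled by TMM and fitted over all 33 libraries in 1 edgeR 4.0.16 quasi-likelihood model (R 4.3.3), with Benjamini-Hochberg adjustment over 18150 genes. The model was tested on simulated data. A fold against a group at 0 is a bound, the mean of the other group against 3 counts per library. Alternatives were DESeq2 1.42.0 size factors and tests, voom with quality weights, other filters, the compared libraries alone, a replicate block and leaving out each library. Levels per length divide CPM by the GENCODE exon length. The members, the gene lists and the marker lists were chosen with earlier results of these data known. Named genes outside the members are, in each list, the 2 with the largest absolute log2 fold change among those called (mean log2 CPM of at least 1), over the mean of days and at day 35 against primed cells, and for each member the 3 genes with the highest Pearson r over group means. Reck was named after its value was seen. A gene that this rule picks is not reported here. Figures were drawn with matplotlib 3.10.9.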

Additional observations from a re-analysis of the deposited data

Results flagged for a closer look

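For 4 of the 10 genes a change of the cone minus rod difference over the 5 times was called, by edgeR's F test of the interaction between treatment and day. That test called 9.22% of all genes. Leaving out each of 30 libraries in turn gave 2 to 5 called members. The adjusted p was 0.000993 for Mmp14, 0.00624 for Mmp2, 0.0267 for Mmp15 and 0.0448 for Timp2. Mmp14 went from -0.42 at day 0 to 0.84 at day 35 and Mmp2 from -1.09 to 2.35 on the log2 scale. Neither difference of day 0 was called, and that of Mmp2 depended on rod primed replicate 3, as given above. The Mmp15 estimates were below 0 at days 0, 5 and 35 and above 0 at days 12 and 21, and no single day was called for it. Timp2 went from 0.22 at day 0 to 1.20 at day 35. As given above, its call was lost on leaving out any of most single libraries, and that of Mmp15 on leaving out any of a few. DESeq2 called 6 members for change with day, with Mmp3 and Timp3 added.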

How the results depend on the processing

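Scaling by DESeq2's size factors inside edgeR changed no count of called members by over 1.5 times. Between primed cells, where the main count was 0, there was 1 member with a filter at a mean of 1 CPM and 3 each by DESeq2, by voom and with the compared libraries alone. At day 5, also 0, there was 1 member with no filter, with the 1 CPM filter, with the compared libraries alone, by voom and by DESeq2. With the compared libraries alone the count fell from 6 to 2 at day 12 and from 7 to 4 in rod cells of day 12 against primed cells. Rod priming gave 4 members, in place of 2, with the 1 CPM filter and by DESeq2.

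The deposited TPM values under limma gave far fewer calls. Between cone and rod there were 0 at days 12, 21 and 35, 1 averaged over days and 0 for change with day. Against primed cells there were 1, 2, 3 and 2 in cone cells and 1, 1, 1 and 0 in rod cells at days 5, 12, 21 and 35, and rod priming gave 0. On TPM the sign turned or the difference became 0 for 12 called results: Timp1 between cone and rod at day 12 (-0.17) and averaged over days (-0.030), in cone cells at days 12 (-0.27), 21 (-0.67) and 35 (-0.29) and in rod cells at day 35 (-0.078); Mmp3 at day 21 between cone and rod (0) and against primed cells (0); Timp3 after rod priming (-0.82); and Mmp11 at day 21 (-0.056), Mmp15 at day 35 (-0.28) and Timp4 at day 35 (-0.12) in cone cells. The cause was not tested.

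Leaving out 1 library at a time gave 2 to 6 called members at day 12, 0 to 3 at day 21, 4 to 6 at day 35, 6 to 6 averaged over days, 2 to 5 for change with day, 0 to 2 between primed cells, 0 to 0 at day 5 and after cone priming, and 0 to 4 after rod priming. Against primed cells it gave 3 to 4, 7 to 8, 9 to 9 and 7 to 9 in cone cells and 0 to 2, 5 to 7, 7 to 8 and 6 to 8 in rod cells.

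Same-numbered libraries did not deviate together for every replicate number (the lowest correlation in a comparison ran from -0.339 to 0.0803), so the replicate number was not taken as a pairing. Single numbers could correlate more. Between cone and rod cells of day 12 the correlations were 0.0444, 0.661 and 0.0886 for replicates 1, 2 and 3. With the replicate block there were 2 members between primed cells, 3 after rod priming and 5 at day 21.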
